A study of Homo sapiens with 4 samples.

Results

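The 39 genes described here encode the machinery of DNA replication and S phase, from origin licensing through the replication fork to deoxynucleotide supply, with the E-type cyclins and E2F factors that drive entry into S phase. They were chosen by symbol in a table of raw read counts for 61533 gene identifiers. All 39 were found once each, and all 39 passed the filter on low counts that left 15950 genes tested. Counts per member and library lay between 58 (E2F2 in shTFE3 replicate 1) and 4226 (MCM4 in shControl replicate 1).

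RNA was sequenced from Caki-1, a human renal carcinoma cell line, after lentiviral transduction with shRNA against TFE3 (shTFE3, 2 libraries) or with a control shRNA (shControl, 2 libraries). Cells of both arms were replated 24 h after transduction, given puromycin at 1 µg/ml 12 h later and kept in it for 3 days, so every library comes from selected cells. TFE3 is a helix-loop-helix transcription factor of the MiT/TFE family, best known for lysosomal and autophagy genes, and the comparison addresses which transcripts depend on it. The arms represent 1 cell line, and the number of different hairpins is not given in the sources used here. Nothing says whether the 2 libraries of an arm came from separate transductions. The p-values therefore cover no more than the spread between libraries like these, and that spread may be technical. The edgeR test takes each gene's spread largely from all genes tested (22.4 prior against 2 residual degrees of freedom). Its SEs can thus be too small for genes that vary more than most between libraries.

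Origins are licensed in G1, when ORC1, CDC6 and CDT1 load the MCM2-7 helicase, and they fire in S phase when CDC45 and the GINS complex join MCM2-7. Many of these genes are transcribed together in late G1, when E2F1, E2F2 and their relatives are released from the retinoblastoma protein. E2F8 is a repressor of the same family that closes the wave. The transcripts are therefore widely read as a measure of how many cells of a culture are entering or passing through S phase. In RNA from a whole culture, fewer cells in S phase and less of a transcript per cell cannot be told apart.

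The totals lay between 17270180 and 17742519 counts per library, so that 3 counts corresponded to between 0.169 and 0.174 CPM (read counts scaled to a common library total with TMM factors). TFE3 itself had 70.1 and 66.9 CPM in the shTFE3 libraries, against 131 and 128 CPM in the shControl libraries. It averaged 68.5 ± 2.25 CPM in shTFE3 and 129 ± 2.04 CPM in shControl (SD, n = 2 each), which is 52.9% of the control level (log2 fold change -0.92, SE 0.06, edgeR adjusted p = 5.6e-11). The 7 markers of renal epithelium summed to 39400 and 39818 counts in shTFE3, against 37056 and 38218 counts in shControl. On the CPM scale the groups overlapped, at 2193 and 2238 CPM in shTFE3, against 2172 and 2243 CPM in shControl. PAX8, KRT8 and VIM were present in all 4 libraries and did not pass the test. CDH6 and KRT18 fell (log2 fold changes -0.55 and -0.28), and PAX2 and CA9 were listed at 0. Of the 5 renal markers tested, 1 was higher and 3 were lower at an unadjusted edgeR p under 0.05. With limma-voom, 1 rose and 2 fell. The 4 leukocyte markers summed to 11 and 11 counts in shTFE3 and 2 and 3 counts in shControl, the 3 endothelial markers to 69 and 59 against 48 and 54, and the 3 fibroblast markers to 113 and 119 against 143 and 144. PTPRC of the leukocyte list had at most 1 count in a library, and CDH5 of the endothelial list had 0. The rest of these sums came from the other markers of each list. The part of these markers in the results was not tested.

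The 2 shTFE3 libraries stood apart in these genes. Of the 39 members, 38 had a lower level in shTFE3 replicate 1 than in shTFE3 replicate 2, where 50.1% of all genes tested did. The median ratio of replicate 1 to replicate 2 was -0.26 on the log2 scale, or 83.7%, and the range ran from -0.81 for GINS3 to 0.05 for POLE2, the exception. A ratio of -0.2 or less was seen in 28 members, against 13.6% of all genes. In 29 members the exact 95% interval of the ratio, which covers counting error only, lay wholly below 0 (10.3% of all genes). Between the 2 shControl libraries, 11 of 39 members were lower in replicate 1 (50.6% of all genes), and the median log2 ratio was 0.06. Of the shControl intervals, 0 lay below 0 (6.84% of all genes) and 5 lay wholly above 0, a side not counted over all genes. TFE3 itself did not separate the shTFE3 libraries in this way: its log2 ratio of replicate 1 to replicate 2 was 0.07. The values below are therefore given library by library, and those that passed the test also with each shTFE3 library left out.

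To show promoter elements found among these genes, a stretch is printed for each of 5 members, from RefSeq on GRCh38.p14. It runs from 160 bases before to 20 bases after the transcription start. CDC6, MCM6 and GINS1 fell in shTFE3, and MCM6 also carries the most E2F sites. E2F1 belongs to the family whose sites are marked, and MCM2 holds a site of the kind that TFE3 binds. Capitals mark E2F sites and, in MCM2, also the palindrome TCACGTGA bound by MiT/TFE factors. The stretches are MCM6 at chr2:135876424-135876603 (minus strand), CDC6 at chr17:40287719-40287898 (plus), GINS1 at chr20:25407513-25407692 (plus), E2F1 at chr20:33686366-33686545 (minus) and MCM2 at chr3:127598251-127598430 (plus).
MCM6: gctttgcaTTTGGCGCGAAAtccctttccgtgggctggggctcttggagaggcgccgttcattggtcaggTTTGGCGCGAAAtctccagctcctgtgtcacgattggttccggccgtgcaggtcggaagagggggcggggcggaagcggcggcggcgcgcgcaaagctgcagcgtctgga
CDC6: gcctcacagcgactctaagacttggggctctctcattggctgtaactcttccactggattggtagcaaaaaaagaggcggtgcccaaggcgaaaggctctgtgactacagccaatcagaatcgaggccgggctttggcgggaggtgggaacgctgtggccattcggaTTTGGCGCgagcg
GINS1: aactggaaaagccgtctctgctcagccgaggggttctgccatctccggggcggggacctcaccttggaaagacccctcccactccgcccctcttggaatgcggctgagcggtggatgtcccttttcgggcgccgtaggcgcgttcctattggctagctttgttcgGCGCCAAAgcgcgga
E2F1: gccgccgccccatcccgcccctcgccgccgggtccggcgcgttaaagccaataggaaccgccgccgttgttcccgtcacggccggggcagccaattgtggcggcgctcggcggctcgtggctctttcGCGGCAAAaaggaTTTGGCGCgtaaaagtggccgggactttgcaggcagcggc
MCM2: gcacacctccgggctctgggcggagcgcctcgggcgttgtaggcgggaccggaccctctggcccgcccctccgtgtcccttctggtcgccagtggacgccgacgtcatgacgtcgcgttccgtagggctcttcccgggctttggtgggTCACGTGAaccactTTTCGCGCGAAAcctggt

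The 4 E2F sites of MCM6 form 2 overlapping pairs, at -152 to -141 and at -90 to -79 from the start. CDC6 and GINS1 carry 1 site each, just after the RefSeq start, at 8 to 15 in CDC6 and 6 to 13 in GINS1. In GENCODE the GINS1 gene begins at chr20:25407727, beyond the end of its stretch at chr20:25407692. The GINS1 site thus lies before the GENCODE start of the gene. E2F1, itself a gene of the E2F family, carries 2 sites, at -33 to -26 and -20 to -13. In MCM2 the MiT/TFE palindrome at -12 to -5 lies next to 2 overlapping E2F sites at 3 to 14.

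Over all 4 libraries, 8 of the 39 members fell in shTFE3 (edgeR adjusted p under 0.05), against 12.9% of all genes tested. These were CDC6, MCM6, GINS1, POLA1, E2F2, UHRF1, SLBP and UNG. RRM2 was the 1 member that rose, where 10.3% of all genes did, and 30 members did not pass the test. The median log2 fold change of the members was -0.02, beside 0.00 for all genes. In 10 members both shTFE3 libraries lay below both shControl libraries, and in 5 both lay above, while 30.5% and 29.8% of all genes did. The shares with separate arms were thus no larger in the members, at 25.6% below and 12.8% above, than in the whole table.

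The library by library view was uneven. Replicate 1 of shTFE3 lay below both shControl libraries in 29 members (40.6% of all genes), while shTFE3 replicate 2 lay below both in 10 (40.9%) and above both in 23 (40.6%). In 13 members the controls lay between the 2 shTFE3 libraries, replicate 1 below and replicate 2 above, which was so for 5.18% of all genes. Those 13 were ORC1, MCM5, CDC45, GINS2, GINS3, PCNA, RFC2, RFC4, RRM1, CCNE1, CHAF1A, CHAF1B and CLSPN. Against the mean of the controls, the median member stood at -0.20 log2 in shTFE3 replicate 1 and at 0.11 in shTFE3 replicate 2, and the controls themselves stood at 0.03 and -0.03.

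**Figure D1:**
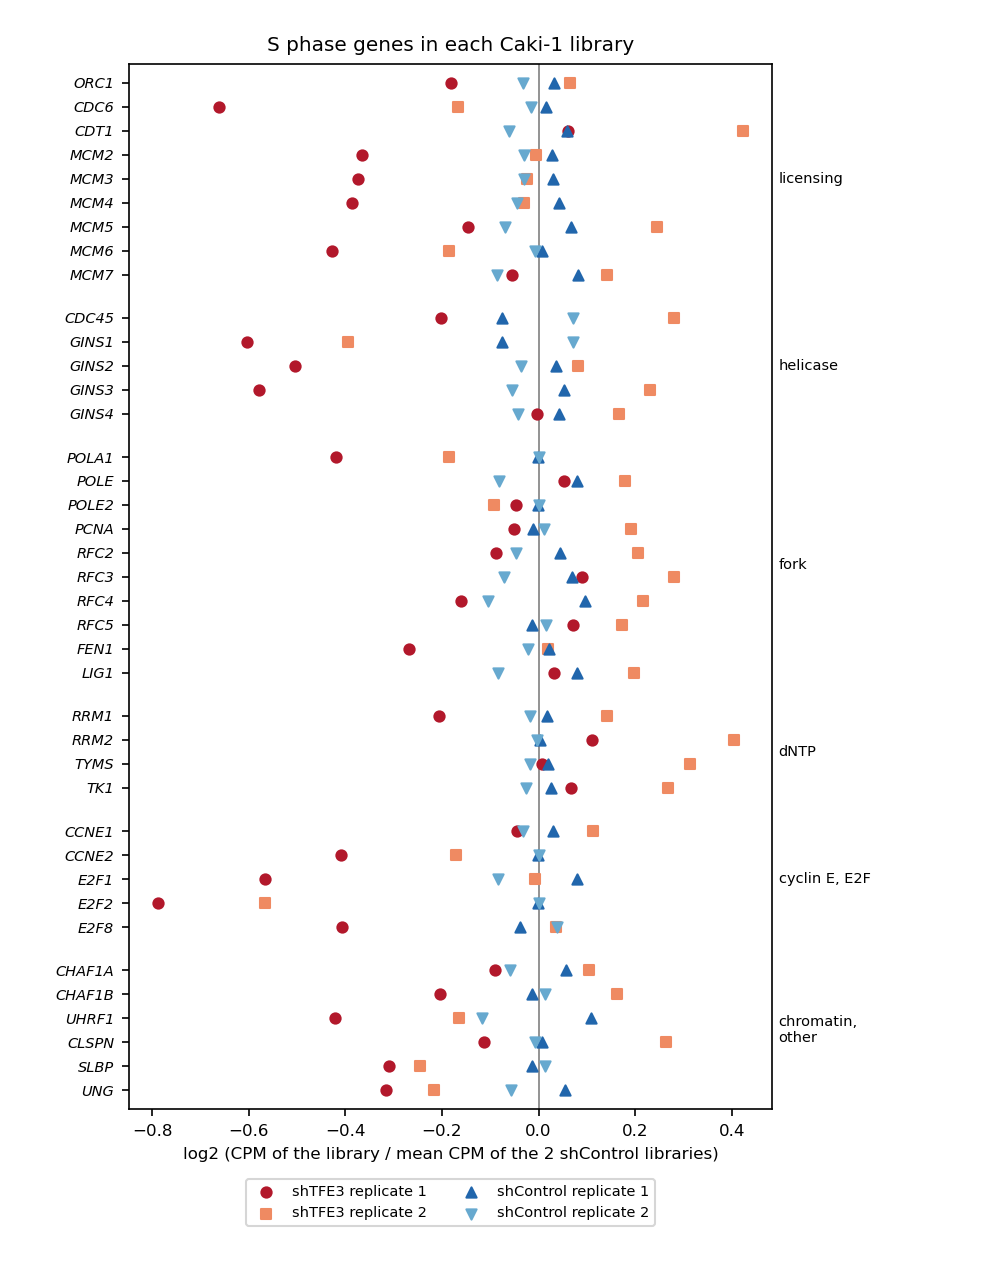
Level of each of the 39 genes in each library, as the log2 ratio of its CPM to the mean CPM of the 2 shControl libraries (x axis), with genes grouped by role on the y axis. Circles (shTFE3 replicate 1) lie to the left of squares (shTFE3 replicate 2) for 38 of the 39 genes, with a median distance of -0.26, and the shControl triangles lie close to 0.

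Leaving out 1 shTFE3 library changed which members passed. Without shTFE3 replicate 1, edgeR called 0 members lower (5.62% of all genes were called lower, and 5 members were at an unadjusted p under 0.05), so that none of the 8 lower calls was made without that library. The same fit called 3 members higher (3.6% of all genes): RRM2, TYMS (adjusted p = 0.0494) and TK1 (adjusted p = 0.042). Without shTFE3 replicate 2, edgeR called 9 members lower (4.08% of all genes), among them MCM2, MCM3, MCM4, GINS2 and E2F1, while GINS1, E2F2, UHRF1 and UNG passed in neither fit, and it called 0 higher (2.22% of all genes, and 0 members at an unadjusted p under 0.05). In both of these fits the lone shTFE3 library is assumed to vary like the 2 shControl libraries. Both also had fewer degrees of freedom than the fit to all 4 libraries (2 residual, 22.4 prior). They had 1 residual each, with 4.25 prior without shTFE3 replicate 1 and 3.98 prior without replicate 2. A call can be lost for that reason alone, and what part it had here was not tested.

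The median over members was 0.11 without shTFE3 replicate 1. It was -0.20 when shTFE3 replicate 2 was the library left out. CDC6 illustrates the range, with a log2 fold change of -0.17 without shTFE3 replicate 1 and -0.66 without shTFE3 replicate 2. SLBP moved least among the lower members, with -0.24 and -0.31.

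Origin licensing factors came to 9, of which 2 fell, CDC6 and MCM6, and all 9 were lower in shTFE3 replicate 1 than in shTFE3 replicate 2 (median log2 ratio -0.36). CDC6, the ATPase that helps the origin recognition complex load MCM2-7 (chr17:40287633-40304657 in GENCODE 29 on GRCh38, as for all gene positions here), had 22.0 and 31.0 CPM in shTFE3, against 35.2 and 34.4 CPM in shControl. Both shTFE3 libraries lay below the controls, replicate 1 far more so (log2 fold change -0.39, SE 0.11, edgeR adjusted p = 0.00786). The SE from DESeq2 was 0.24. DESeq2 gave CDC6 an adjusted p of 0.311, and edgeR gave 0.246 with shTFE3 replicate 1 left out and 0.0238 with replicate 2 left out.

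MCM6, a subunit of the helicase ring (chr2:135839626-135876426), had 74.5 and 88.0 CPM in shTFE3, against 101 and 99.6 CPM in shControl. The groups did not overlap (log2 fold change -0.30, SE 0.07, edgeR adjusted p = 0.00242). With shTFE3 replicate 1 left out MCM6 stood at -0.18 (edgeR adjusted p = 0.122), and with replicate 2 left out at -0.43 (edgeR adjusted p = 0.0293). Among the 6 ring subunits it was the 1 that passed.

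The other ring subunits split between the shTFE3 libraries. MCM2 had 53.8 and 69.0 CPM in shTFE3, against 70.7 and 67.9 CPM in shControl. MCM3 had 76.8 and 97.9 CPM in shTFE3, against 102 and 97.4 CPM in shControl, and MCM4 had 184 and 236 CPM against 248 and 233 CPM. In all 3, shTFE3 replicate 1 was low and shTFE3 replicate 2 lay between the controls, with log2 fold changes of -0.18, -0.19 and -0.20 (edgeR adjusted p = 0.14, 0.0901 and 0.0617). MCM5 had 45.5 and 59.6 CPM in shTFE3, against 52.7 and 47.9 CPM in shControl. Here the shTFE3 libraries lay on either side of the controls. MCM7, which hosts microRNA genes in an intron, had 161 and 185 CPM in shTFE3, against 177 and 158 CPM in shControl, with overlapping groups. For MCM2, 22.7% of exon bases are shared with an antisense gene in GENCODE 29, and reads of the pair cannot be told apart without strand.

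CDT1, the loader that is destroyed once S phase begins, had 17.3 and 22.3 CPM in shTFE3, against 17.3 and 15.9 CPM in shControl. The log2 fold change of CDT1 was 0.25 with an SE of 0.11 (edgeR adjusted p = 0.109), with shTFE3 replicate 1 at the level of shControl replicate 1. CDT1 and CDC6, partners in the same loading step, thus had fold changes of opposite sign, though the difference between them was not tested. ORC1, the largest subunit of the origin recognition complex, had 14.4 and 17.0 CPM in shTFE3, against 16.6 and 15.9 CPM in shControl, on either side of the controls.

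**Figure D2:**
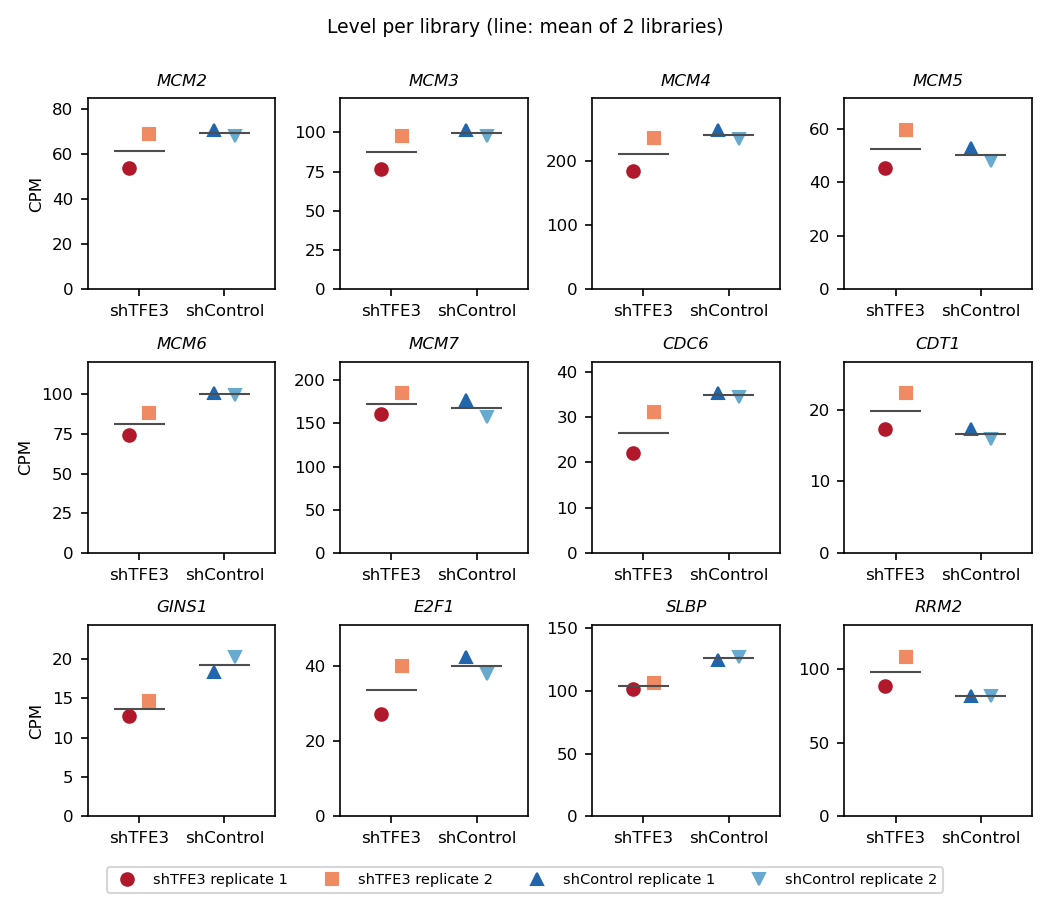
CPM (y axis, from 0) in each library of the shTFE3 and shControl groups (x axis) for the 6 MCM2-7 subunits, CDC6, CDT1, GINS1, E2F1, SLBP and RRM2, with lines at the mean of 2 libraries. In MCM2, MCM3 and MCM4 shTFE3 replicate 2 lies between the controls and replicate 1 below them, while SLBP has both shTFE3 libraries together, at 102 and 106 CPM, below 125 and 127 CPM.

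The helicase activators CDC45 and GINS1 to GINS4 showed the widest gap between the shTFE3 libraries of any role, with a median log2 ratio of -0.48, and 1 of the 5 fell. GINS1 (chr20:25407727-25452628), a subunit of the GINS tetramer that holds CDC45 on the helicase, had 12.7 and 14.7 CPM in shTFE3, against 18.3 and 20.3 CPM in shControl. Both shTFE3 libraries lay below both controls, replicate 1 at 86.5% of replicate 2 (log2 fold change -0.49, SE 0.11, edgeR adjusted p = 0.0012). The fold change was -0.39 with shTFE3 replicate 1 left out and -0.60 with replicate 2 left out, and GINS1 passed in neither fit (edgeR adjusted p = 0.101 and 0.0523).

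The other 3 subunits of the tetramer did not pass. GINS2 had 20.5 and 30.7 CPM in shTFE3, against 29.8 and 28.3 CPM in shControl. GINS3 had 6.29 and 11.0 CPM in shTFE3, against 9.73 and 9.04 CPM in shControl, and GINS4 had 15.7 and 17.7 CPM against 16.2 and 15.3 CPM. An antisense gene shares 21.2% of the exon bases of GINS4. GINS3 gave the widest gap between the shTFE3 libraries among the 39, at 57.1% of replicate 2 in replicate 1, with an exact 95% interval of the log2 ratio from -1.16 to -0.47. It is also among the least abundant, with 113 and 196 counts in shTFE3 and 166 and 154 counts in shControl. CDC45, which completes the active helicase, had 11.1 and 15.5 CPM in shTFE3, against 12.1 and 13.4 CPM in shControl, and the controls lay between the shTFE3 libraries.

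At the fork, 1 of 10 genes fell, POLA1, and 9 of 10 were lower in shTFE3 replicate 1 than in shTFE3 replicate 2 (median log2 ratio -0.21). POLA1, the catalytic subunit of the polymerase that primes new strands (chrX:24693919-24996986), had 28.7 and 33.7 CPM in shTFE3, against 38.3 and 38.3 CPM in shControl. The groups did not overlap, and edgeR put POLA1 at -0.30 on the log2 scale with an SE of 0.08 (adjusted p = 0.0115; DESeq2 adjusted p = 0.0754). Leaving out shTFE3 replicate 1 gave -0.18 (edgeR adjusted p = 0.193), and leaving out replicate 2 gave -0.42 (edgeR adjusted p = 0.0478). POLE, the leading-strand polymerase, had 79.7 and 86.9 CPM in shTFE3, against 81.1 and 72.5 CPM in shControl. POLE2, its accessory subunit, had 5.45 and 5.28 CPM in shTFE3, against 5.63 and 5.64 CPM in shControl. It was the 1 member that was not lower in shTFE3 replicate 1 than in shTFE3 replicate 2, at between 94 and 98 counts in each library.

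The sliding clamp PCNA had 73.7 and 87.2 CPM in shTFE3, against 75.7 and 77.0 CPM in shControl, with the controls in between. The clamp loader subunits RFC2, RFC3, RFC4 and RFC5 had log2 fold changes from 0.04 to 0.19, and 0 of the 4 passed in edgeR (0 at an unadjusted p under 0.05, and 0 passed in DESeq2). RFC2 had 23.1 and 28.4 CPM in shTFE3, against 25.4 and 23.8 CPM in shControl, and RFC5 had 26.2 and 28.1 CPM in shTFE3, against 24.7 and 25.2 CPM in shControl. Only RFC3 and RFC5 of the 4 had both shTFE3 libraries above both controls. RFC3 had 20.8 and 23.8 CPM in shTFE3, against 20.5 and 18.6 CPM in shControl (edgeR adjusted p = 0.18). RFC4 had 20.2 and 26.2 CPM in shTFE3, against 24.2 and 21.0 CPM in shControl. FEN1, the flap nuclease of lagging-strand maturation, had 46.2 and 56.5 CPM in shTFE3, against 56.6 and 54.9 CPM in shControl. LIG1, which seals the nicks, had 36.6 and 41.0 CPM in shTFE3, against 37.8 and 33.8 CPM in shControl.

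Per kilobase of exon, levels differed widely among the fork genes. On that scale PCNA averaged 54.7 CPM per kb in shTFE3 and 51.9 in shControl, while POLE2 averaged 1.82 in shTFE3 and 1.91 in shControl. Over all 39 members the ends of the range were TK1, at 111 CPM per kb in shTFE3 and 99.0 in shControl, and E2F2, at 0.641 in shTFE3 and 1.02 in shControl.

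The 4 genes of deoxynucleotide supply were the role with the highest median log2 fold change, 0.17. RRM2, the regulated subunit of ribonucleotide reductase (chr2:10120698-10131419), had 88.4 and 108 CPM in shTFE3, against 82.1 and 81.8 CPM in shControl. Both shTFE3 libraries lay above the controls (log2 fold change 0.26, SE 0.08, edgeR adjusted p = 0.0114). Its fold change was 0.41 without shTFE3 replicate 1 (edgeR adjusted p = 0.0236) but 0.11 without replicate 2 (edgeR adjusted p = 0.309), and 20.2% of its exon bases are shared with a gene on the same strand in GENCODE 29. RRM1, the large subunit of the same enzyme, had 89.5 and 114 CPM in shTFE3, against 104 and 102 CPM in shControl, on either side of the controls.

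TK1, the salvage kinase for thymidine, had 193 and 222 CPM in shTFE3, against 187 and 181 CPM in shControl. Both shTFE3 libraries were above both controls, with a log2 fold change of 0.17 (SE 0.06) and an edgeR adjusted p of 0.0502, which RLE scaling moved to 0.0491. TYMS, which makes thymidylate, had 52.0 and 64.4 CPM in shTFE3, against 52.5 and 51.1 CPM in shControl. Replicate 1 lay between the controls and replicate 2 above them, and 39.2% of its exon bases are shared with ENOSF1 on the opposite strand.

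Of the 5 cyclin E and E2F genes, E2F2 fell. E2F2 (chr1:23506430-23531220), an activator of the S phase programme, had 3.23 and 3.77 CPM in shTFE3, against 5.57 and 5.58 CPM in shControl. The groups did not overlap, and its log2 fold change of -0.67 was the lowest of the 39 (SE 0.17, edgeR adjusted p = 0.00593), from 58 and 67 counts in shTFE3 and 95 and 95 counts in shControl. DESeq2 gave an adjusted p of 0.103. In edgeR, E2F2 stood at -0.56 with shTFE3 replicate 1 left out and at -0.79 with replicate 2 left out, and did not pass either time (adjusted p = 0.0995 and 0.0619). E2F1, the other activator, had 27.0 and 39.9 CPM in shTFE3, against 42.3 and 37.7 CPM in shControl. Only shTFE3 replicate 1 left the range of the controls, for a log2 fold change of -0.26 with an SE of 0.11 (edgeR adjusted p = 0.0989).

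E2F8 had 5.95 and 8.09 CPM in shTFE3, against 7.68 and 8.10 CPM in shControl. CCNE1, the cyclin partner of CDK2 at the G1/S boundary, had 23.0 and 25.7 CPM in shTFE3, against 24.3 and 23.2 CPM in shControl. CCNE2, its close relative, had 7.29 and 8.60 CPM in shTFE3, against 9.67 and 9.69 CPM in shControl. CCNE2 was below both controls in both libraries and CCNE1 on either side of them, and neither passed (edgeR adjusted p = 0.129 and 0.825). For CCNE2, 37.0% of exon bases are shared with INTS8 on the opposite strand.

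Of the 6 genes of chromatin assembly, checkpoint, histone mRNA and uracil repair, SLBP, UNG and UHRF1 fell. In SLBP and UNG the 2 shTFE3 libraries were close, with log2 ratios of -0.06 and -0.10. SLBP, which binds the stem loop of replication-dependent histone mRNA (chr4:1692800-1712555), had 102 and 106 CPM in shTFE3, against 125 and 127 CPM in shControl. It averaged 104 ± 3.30 CPM in shTFE3 and 126 ± 1.73 CPM in shControl (SD, n = 2 each), a log2 fold change of -0.28 with an SE of 0.06 (edgeR adjusted p = 0.00119). UNG, the uracil DNA glycosylase (chr12:109097574-109110992), had 51.6 and 55.3 CPM in shTFE3, against 66.7 and 61.8 CPM in shControl. Its groups were also separate (log2 fold change -0.27, SE 0.07, edgeR adjusted p = 0.00755), but with shTFE3 replicate 1 or replicate 2 left out UNG did not pass (-0.22 and -0.32, edgeR adjusted p = 0.152 and 0.0821). For SLBP the edgeR adjusted p was 0.0633 with shTFE3 replicate 1 left out and 0.0475 with replicate 2 left out.

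UHRF1, which brings maintenance methylation to new DNA (chr19:4903080-4962154), had 40.0 and 47.8 CPM in shTFE3, against 57.7 and 49.4 CPM in shControl. The arms came close to each other but did not overlap (log2 fold change -0.29, SE 0.09, edgeR adjusted p = 0.0168; DESeq2 0.0791). UHRF1 did not pass with either shTFE3 library left out, at -0.16 without replicate 1 and -0.42 without replicate 2 (edgeR adjusted p = 0.393 and 0.0977). The histone chaperone subunits CHAF1A and CHAF1B had log2 fold changes of 0.01 and -0.01. CHAF1A had 25.2 and 28.8 CPM in shTFE3, against 27.9 and 25.8 CPM in shControl. CHAF1B had 24.7 and 31.9 CPM in shTFE3, against 28.2 and 28.8 CPM in shControl. CLSPN, the checkpoint mediator claspin, had 18.8 and 24.4 CPM in shTFE3, against 20.5 and 20.3 CPM in shControl. In all 3, the shTFE3 libraries lay on either side of the controls.

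**Figure D3:**
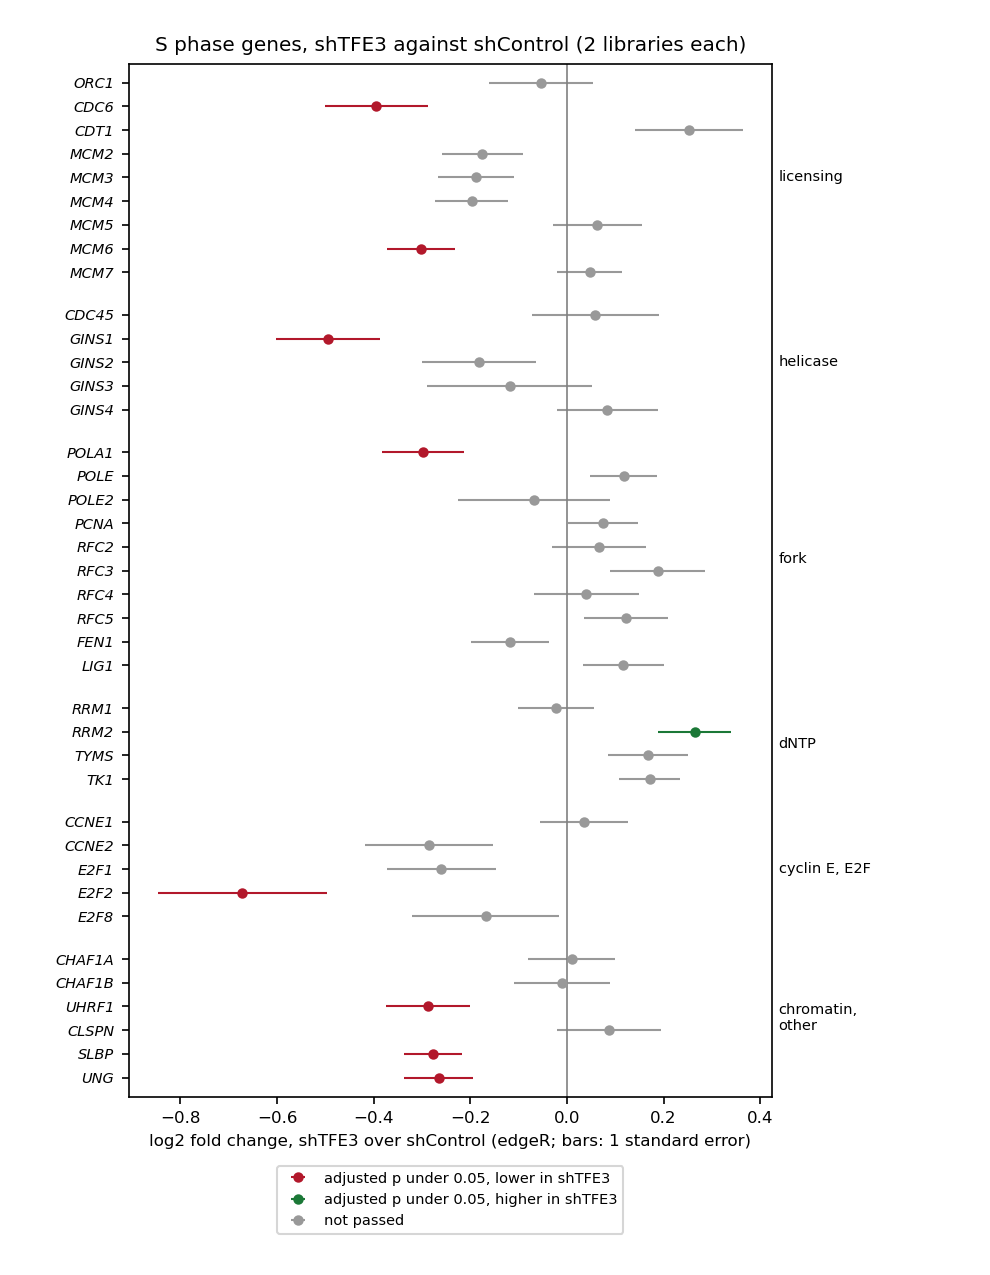
edgeR log2 fold change of each of the 39 genes, shTFE3 over shControl (x axis; bars are 1 standard error; 2 libraries per arm), with genes grouped by role on the y axis. The 8 genes that passed with a lower level lie between -0.67 (E2F2) and -0.27 (UNG), and RRM2, the 1 that passed with a higher level, lies at 0.26.

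Other genes of replication, outside the 39, were set beside them. Of 49 other replication genes tested, 5 rose and 2 fell, shares at or below the 10.3% and 12.9% of all genes. Those that rose included DBF4, the activator of the CDC7 kinase (log2 fold change 0.31), SSRP1 (0.21), DNMT1 (0.23) and RECQL4 (0.32). Those that fell were POLD2 (-0.20) and DTL (-0.26), and the median was 0.03. In 46 of the 49 the level was lower in shTFE3 replicate 1 than in shTFE3 replicate 2, with a median log2 ratio of -0.18. In edgeR without shTFE3 replicate 1, 2 rose and 0 fell (0 lower at an unadjusted p under 0.05), and with replicate 2 left out in its place 0 rose and 1 fell (2 higher at an unadjusted p under 0.05). DESeq2 on all 4 libraries gave 2 higher and 0 lower.

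Genes that act later and earlier in the cycle were also set beside the 39. Of 40 genes of G2 and mitosis, 29 rose in shTFE3, beside 10.3% of all genes, and the median over the 40 was 0.46 log2. CDC20, which activates the anaphase-promoting complex, had 77.5 and 88.2 CPM in shTFE3, against 52.4 and 50.8 CPM in shControl (log2 fold change 0.68, edgeR adjusted p = 1.03e-07). TPX2, AURKA and FOXM1 had log2 fold changes of 0.58, 0.59 and 0.54. All 40 were nevertheless lower in shTFE3 replicate 1 than in shTFE3 replicate 2, with a median log2 ratio of -0.28, close to the -0.26 of the 39 S phase genes. Without shTFE3 replicate 1, 31 of the 40 rose (3.6% of all genes), and without shTFE3 replicate 2, 13 did (2.22%).

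Of 32 G1/S control genes tested, 8 rose and 5 fell, where 10.3% and 12.9% of all genes did. CCND1, the D-type cyclin, had 115 and 115 CPM in shTFE3, against 219 and 205 CPM in shControl (log2 fold change -0.88, edgeR adjusted p = 3.69e-11), and its partner CDK4 had a log2 fold change of -0.45. CDKN1A, the p21 inhibitor of CDK2, had 336 and 333 CPM in shTFE3, against 207 and 205 CPM in shControl (log2 fold change 0.70, edgeR adjusted p = 6.55e-10). CDKN1C, a related inhibitor, had 11.2 and 9.16 CPM in shTFE3, against 26.0 and 20.8 CPM in shControl (log2 fold change -1.20). These regulators did not share the gap between the shTFE3 libraries: 21 of the 32 were lower in replicate 1, with a median log2 ratio of -0.05. With shTFE3 replicate 1 left out, 5 rose and 3 fell (3.6% and 5.62% of all genes), and with replicate 2 left out, 1 rose and 4 fell (2.22% and 4.08%).

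Of 24 p53 targets, 12 rose and 1 fell (10.3% and 12.9% of all genes), with a median log2 fold change of 0.21, and CDKN1A, which is in both lists, DDB2 (0.71), AEN (0.40) and BTG2 (0.63) had the smallest p. Here 6 of 24 were lower in shTFE3 replicate 1, and the median log2 ratio of the libraries was 0.08. Of these targets, 4 rose with shTFE3 replicate 1 left out (3.6% of all genes) and 6 with replicate 2 left out (2.22%). What part the difference between the 2 shTFE3 libraries has in the fold changes of the S phase genes was not tested.

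**Figure D4:**
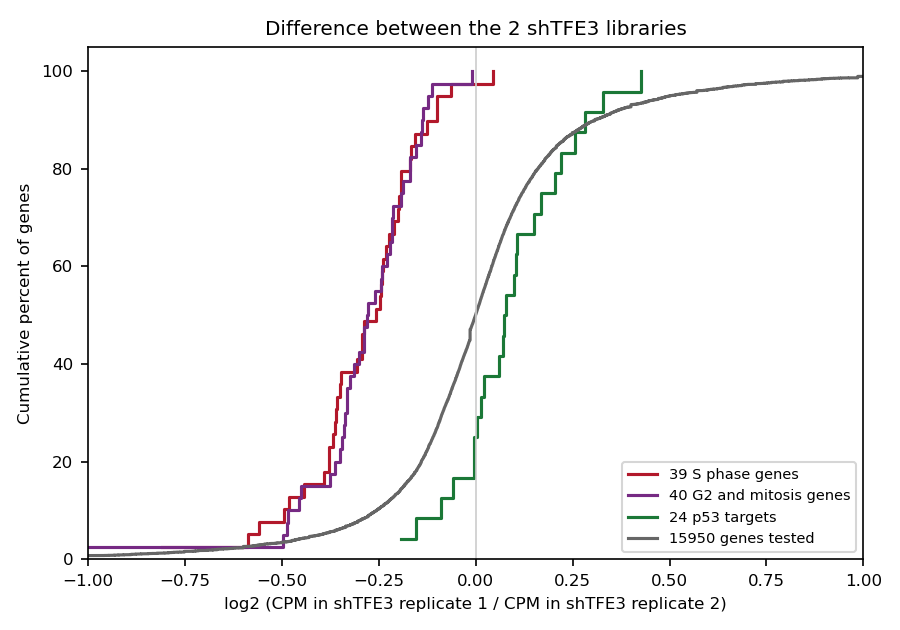
Cumulative percent of genes (y axis) against the log2 ratio of CPM in shTFE3 replicate 1 to CPM in shTFE3 replicate 2 (x axis, drawn from -1 to 1), for the 39 S phase genes, 40 G2 and mitosis genes, 24 p53 targets and all 15950 genes tested. The curves of the S phase and the G2 and mitosis genes run together with medians of -0.26 and -0.28, the p53 targets have a median of 0.08, and all genes are centred on 0.

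Motifs were searched in RefSeq promoter windows from 250 bases before to 50 after the start. The members were chosen by symbol and not by sequence. Many of them belong to the E2F wave described above, so a high share of E2F sites is no independent result. A window was at hand for 34 of the 39. An E2F site, searched on both strands as TTTCCCGC, TTTGGCGC, TTTCGCGC or TTTGCCGC, was present in 21 of the 34, or 61.8% (exact 95% interval 43.6 to 77.8), where 6.46% of 11269 tested genes with a window had one. The share was 35.0% of 40 other replication genes and 9.09% of 33 genes of G2 and mitosis. The CHR element TTTGAA, a mark of genes expressed late in the cycle, showed the reverse order, at 5.88% of the members, 69.7% of the G2 and mitosis genes and 13.7% of all tested genes. The CCAAT box was found in 58.8% of the members, against 43.1% of all tested genes.

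The E-box CACGTG was found in 14.7% of the members, against 12.3% of tested genes. Its longer form TCACGTGA, the MiT/TFE site, which contains the E-box, was in 3 of the 34 members, MCM2, FEN1 and CHAF1A (8.82%, exact 95% interval 1.86 to 23.7), against 2.19% of tested genes. The log2 fold changes of these 3 were -0.18, -0.12 and 0.01, and edgeR and DESeq2 called 0 of the 3 (1 of the 3, MCM2, was at an unadjusted p under 0.05 in edgeR). The MCM2 palindrome is the one shown in capitals above.

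Of the 21 members with an E2F site, 7 fell and 0 rose, and of the 13 without one, 1 fell (SLBP) and 1 rose (RRM2). Over all genes tested, with or without a site, 12.9% fell and 10.3% rose. Whether a fall went with a site was not tested. The gap between the shTFE3 libraries was alike with and without a site, at a median log2 ratio of -0.24 in the 21 members with one and -0.29 in the 13 without. The median log2 fold change was -0.18 in the members with a site and 0.04 in those without. A match to these letters is a description of the window and no evidence of binding. The lack of a match does not show that a gene is free of E2F control.

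**Figure D5:**
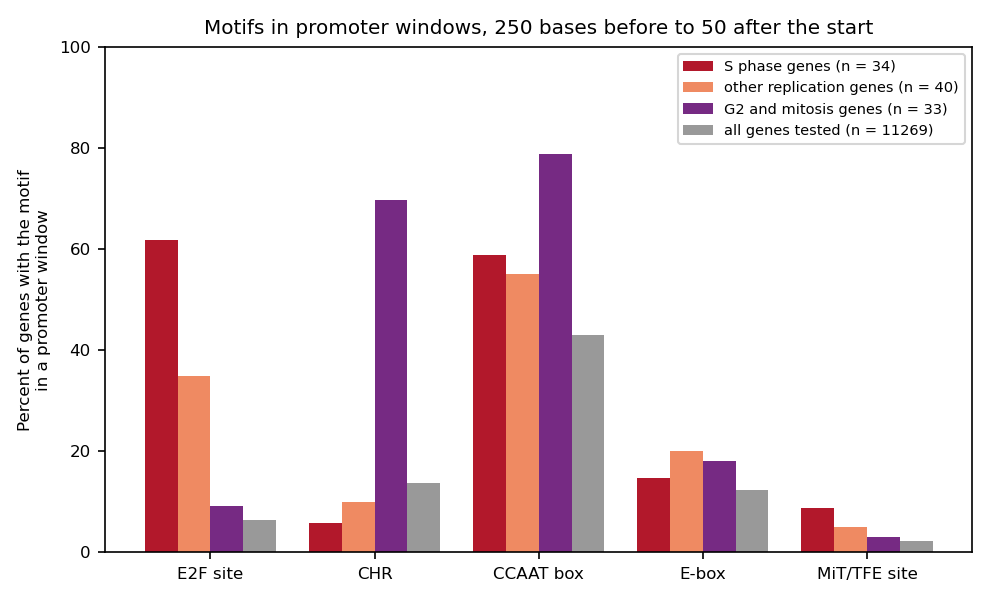
Percent of genes with each motif in a RefSeq promoter window (y axis, from 0) for the motifs on the x axis, in 34 S phase genes, 40 other replication genes, 33 G2 and mitosis genes and 11269 tested genes. E2F sites are at 61.8% in the S phase genes and 9.09% in the G2 and mitosis genes, and the CHR element is at 5.88% and 69.7% in the same groups.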

How the data were processed

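Polyadenylated RNA was sequenced in 150-base paired reads. The authors deposited raw read counts per Ensembl gene. Trim Galore, STAR, featureCounts and DESeq2 with hg38 were used, per the submitters' processing notes; no source used here gives the annotation, the strand setting or the rule for multi-mapped reads. A table of the authors' own comparison, deposited with mean signal, log2 fold changes, test score and p-values, was not used for any value here.

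Groups came from the sample titles. Identifiers were given symbols through a gene name table (61369) or GENCODE 29 (105); positions and exon lengths are those of GENCODE 29 on GRCh38. The arms were compared with the quasi-likelihood test of edgeR 4.0.16 (R 4.3.3), fitted to the deposited counts with arm as the only term, TMM scaling and a filterByExpr filter per arm. Benjamini-Hochberg adjustment ran over all 15950 genes tested, with a threshold of 0.05. Genes tested held 99.8% of counts. The chi-square of replicate counts over its degrees of freedom was 3.61 in shTFE3 and 2.11 in shControl, above sampling noise. Each library was counted as a replicate, though such an excess may be technical and does not show that the libraries are independent. Alternatives were RLE and upper-quartile factors, no filter, at least 50 counts in 2 libraries, DESeq2 1.42.0, limma-voom (limma 3.58.1), a replicate block, leaving out each library, and a promoter window of 100 bases. Scripts were tested on simulated data. Intervals are exact (Clopper-Pearson). Those of the library ratios cover counting error only. Those of the motif shares treat the genes of a list as a random draw, which the members were not.

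Named genes were all 39 members, TFE3, and up to 4 called genes with the smallest p in each other list. POLD2 and DTL, the 2 other replication genes that fell, and the cell type markers were named outside this rule, after their values were seen. The members and lists were chosen with earlier results of these data known. The list of replication stress and recombination genes is not reported here.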

Additional observations from a re-analysis of the deposited data

How the results depend on the processing

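With RLE factors, 2 members rose (TK1 as well as RRM2) and 8 fell, and with a filter of at least 50 counts in 2 libraries the counts were likewise 2 and 8. Upper-quartile factors and limma-voom gave 1 and 8. DESeq2 gave 1 and 4, losing CDC6, POLA1, E2F2 and UHRF1. With no filter on low counts, edgeR called 0 members in either direction (0 higher and 6 lower at an unadjusted p under 0.05), and the prior degrees of freedom were 2.09, against 22.4 with the filter; the cause was not tested. Over all genes, 848 rose and 1309 fell with DESeq2, and 104 and 280 with no filter.

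Leaving out 1 library in turn gave between 0 and 3 higher members and between 0 and 10 lower members, with 0 lower without shTFE3 replicate 1 and 6 lower without shControl replicate 1, where UHRF1 and UNG were lost. Over all genes these fits gave 367 to 1008 higher and 676 to 1507 lower. The median member fold change ran from -0.20 to 0.11 and changed sign without shTFE3 replicate 1 only, among the alternatives run. No called member changed direction under any of them. A replicate block gave 1 higher and 11 lower members, with MCM3, MCM4 and E2F1 gained; same-numbered libraries did not deviate together (correlation -0.03 across genes), so the numbers are not taken as pairs. The E2F site share was 55.9% with 100 bases before the start.

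With 2 libraries per arm, 1 cell line and members as low as 58 counts, small changes can be missed. A member that did not pass is not thereby shown to be unchanged.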
